A study of Mus musculus with 25 samples.

Results

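The chemokine genes Cxcl1, Cxcl2, Cxcl5, Cxcl10 and Cxcl12 and the interleukin 1 genes Il1b, Il1r1, Il1r2 and Il1rn were followed through injury of the tibialis anterior, a muscle at the front of the shin. They were chosen by gene symbol, and like the gene lists used below they were chosen with earlier results of these data known. Counts set beside shares of all probe sets are therefore descriptions. All 9 genes were found among the 8251 that the array names through single-symbol probe sets. They had 13 of its 12488 probe sets, and each gene is described by the probe set with its highest mean level over the 25 arrays. All mice were female C57BL/6J animals 2 to 3 months old. Freeze-injured muscles, touched for 10 s with a 6 mm steel probe at the temperature of dry ice, were taken at 6 hours, 1 day and 3 days (3 arrays each) and at 7 days (2 arrays). Contraction-injured muscles, which had gone through 150 eccentric contractions in vivo, were taken at 6 hours, 3 days and 7 days (3 arrays each) and at 1 day (2 arrays). The controls were 3 uninjured muscles. The labels do not say whether samples shared a mouse, so p-values reflect only how far these samples differ, and some of that may be technical.

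CXC chemokines are small secreted proteins that steer leukocytes. Cxcl1, Cxcl2 and Cxcl5 attract neutrophils through the receptor Cxcr2, Cxcl10 attracts activated T cells through Cxcr3 and is induced by interferons, and Cxcl12 is made constitutively by stromal cells and acts through Cxcr4. Interleukin 1 beta, the product of Il1b, is cut to its active form by caspase 1 and signals through Il1r1, whereas Il1r2 is a decoy receptor that does not signal and Il1rn encodes a secreted antagonist that occupies Il1r1. Signalling through Il1r1 activates NF-kB, which in many cell types raises transcription of neutrophil-attracting chemokines, and damaged skeletal muscle is known to be entered by neutrophils before macrophages.

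Promoter sequences from RefSeq (build GRCm38.p6) were at hand for 8 of the 9 genes. The windows of 4 are shown, each as the 250 bases before the annotated start: Cxcl1 and Cxcl2, which had their highest levels together after freeze at 6 hours, Cxcl10, whose time course differed from theirs, and Cxcl12, which alone of the 9 was higher after freeze at 1 day than at 6 hours by the test. Capitals mark matches, on either strand, to an NF-kB motif (GGGNNNTTCC), an AP-1 motif (TGANTCA) and an interferon-stimulated response element (GAAANNGAAA), all read 5′ to 3′ along the gene's strand.
Cxcl1, chr5:90890995-90891244, plus strand: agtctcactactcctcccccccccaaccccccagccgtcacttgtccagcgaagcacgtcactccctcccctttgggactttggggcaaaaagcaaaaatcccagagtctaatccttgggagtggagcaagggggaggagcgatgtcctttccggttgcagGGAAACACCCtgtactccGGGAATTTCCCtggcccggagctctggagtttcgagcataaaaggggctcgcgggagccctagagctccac
Cxcl2, chr5:90903649-90903898, plus strand: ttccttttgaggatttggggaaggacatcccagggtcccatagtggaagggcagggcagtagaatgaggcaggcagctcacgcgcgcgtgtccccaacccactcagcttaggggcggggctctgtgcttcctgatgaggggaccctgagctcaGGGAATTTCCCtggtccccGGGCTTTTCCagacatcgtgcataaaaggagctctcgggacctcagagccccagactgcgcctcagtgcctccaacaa
Cxcl10, chr5:92348890-92349139, minus strand: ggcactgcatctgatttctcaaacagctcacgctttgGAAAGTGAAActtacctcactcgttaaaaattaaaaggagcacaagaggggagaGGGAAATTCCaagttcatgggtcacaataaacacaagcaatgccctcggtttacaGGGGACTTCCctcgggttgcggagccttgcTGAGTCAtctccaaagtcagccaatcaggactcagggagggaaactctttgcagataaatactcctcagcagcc
Cxcl12, chr6:117168285-117168534, plus strand: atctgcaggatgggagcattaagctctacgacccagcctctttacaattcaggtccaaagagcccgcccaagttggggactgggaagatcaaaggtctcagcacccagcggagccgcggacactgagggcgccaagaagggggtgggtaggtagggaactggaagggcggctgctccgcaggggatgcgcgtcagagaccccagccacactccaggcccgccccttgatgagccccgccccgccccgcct
Cxcl1 and Cxcl2 each held 3 matches to the NF-kB motif and none to the other motifs. In both, 2 of the 3 matches overlap, since GGGAATTTCCC reads as a match on either strand. Cxcl10 held 2 matches to the NF-kB motif, 1 to the AP-1 motif and 1 to the response element, and Cxcl12 held none. Of 32851 promoter windows of 250 bases, 4.65% held the NF-kB motif, 6.75% the AP-1 motif and 2.98% the response element. Among the genes not shown, the windows of Il1b and Il1r2 held no match, 1 of the 2 windows of Il1r1 held an NF-kB match, and of the 3 windows of Il1rn, 1 held an AP-1 match and 1 an NF-kB match. A match is a run of letters and says nothing of binding in these muscles.

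Values are array signals after the authors' scaling (the trimmed mean was 150.09 to 150.13 on the 25 arrays), and differences between groups are on the scale of log2(signal + 13), ± SE, on which changes of dim genes come out too small. A gene was called at an adjusted p under 0.05 over all 9506 probe sets tested with limma. Muscle fibre markers were bright on every array, with a summed signal of 28129 to 153692 over 9 genes. There were 2 arrays that stood apart. Freeze replicate 436, labelled 3 days, correlated at r = 0.803 and 0.804 with the other arrays of its group and at 0.947 to 0.952 with the controls, while arrays within the other groups correlated at 0.939 or more. Contraction replicate 431, taken at 6 hours, was near the freeze arrays in several of the 9 genes, as described below. Both were kept under their labels, and results that rest on them are given with and without them. The 8 comparisons with control share the same 3 control arrays. In whole muscle, fewer cells of a type and less RNA per cell cannot be told apart.

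At 6 hours after freeze injury 7 of the 9 genes were higher than in controls, against 3.33% of all probe sets tested, and on all 3 arrays 8 of the 9 lay above every control, against 11.4%. Cxcl5, Cxcl1 and Il1b rose 26.4-fold, 24-fold and 21.1-fold on the scale of signal plus 13. At 1 day 7 of the 9 were again higher (9.15% of all probe sets), with 8 above every control (18.5%), but Cxcl12 had taken the place of Cxcl10 among them. After contraction 2 of the 9, Cxcl1 and Cxcl10, were higher at 6 hours (1.63%), at adjusted p = 0.035 and 0.0448. Over all 8 injured groups 8 of the 9 changed by the moderated F test (26.2%), all but Il1r1 (adjusted p = 0.058). The median difference over the 9 genes was 3.19 after freeze and 1.17 after contraction at 6 hours, and that of all probe sets tested was -0.04 and -0.08. The filter on low values was passed by Cxcl2 on 8 arrays, by Il1b on 9, by Cxcl10 on 10 and by Cxcl5 on 12, all of them injured, so these 4 genes could enter the test only through injured muscles.

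**Figure D1:**
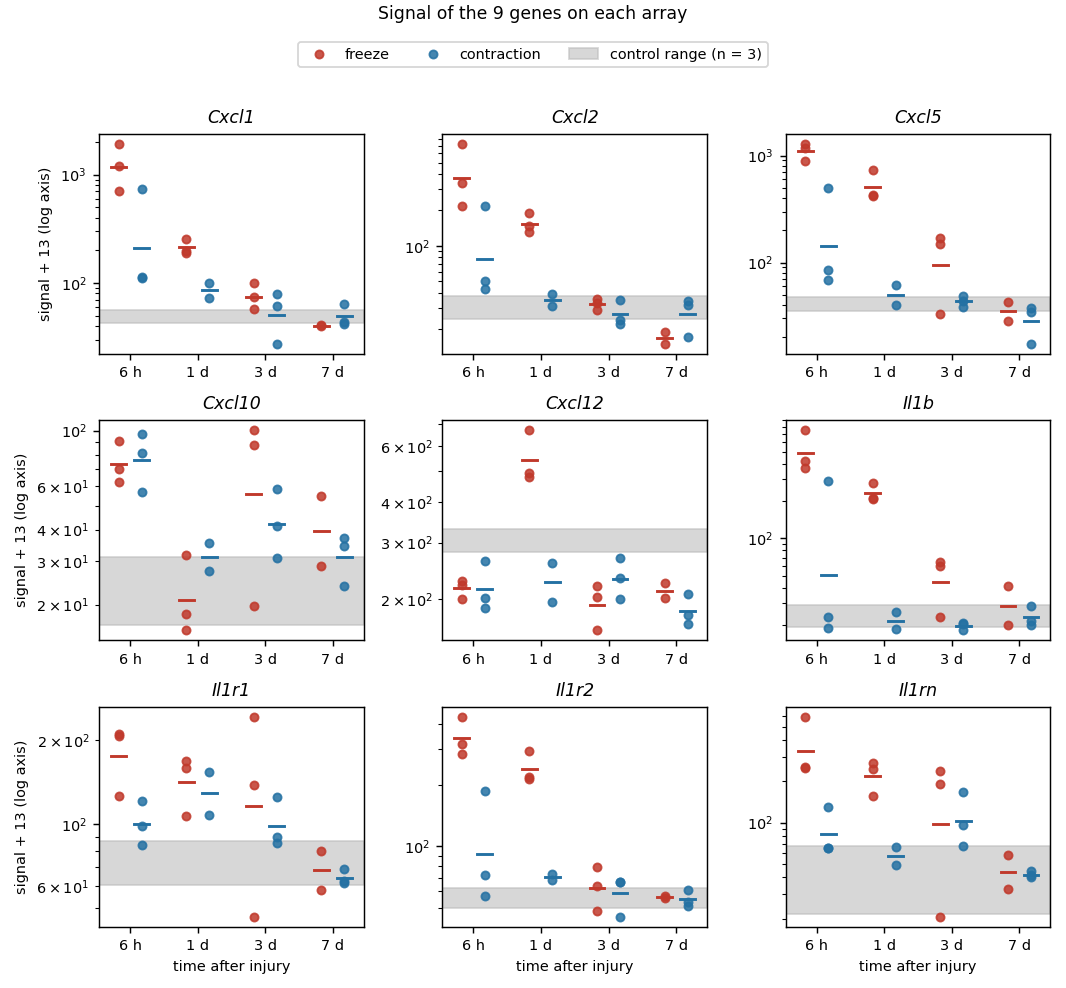
Signal plus 13 units (log axis) of the 9 genes on every array by time after injury, with freeze (red) left of contraction (blue), bars at the mean of the log values, and the range of the 3 controls as a grey band. Cxcl1, Cxcl2, Cxcl5, Il1b, Il1r2 and Il1rn were highest after freeze at 6 hours, Cxcl12 had its peak after freeze at 1 day, and 1 contraction array at 6 hours stood far above the other 2 in Cxcl1, Cxcl2, Cxcl5, Il1b and Il1r2.

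Cxcl1, a ligand of Cxcr2, gave signals of 1178, 692 and 1912 after freeze at 6 hours and 186, 176 and 244 at 1 day, against 43.6, 35.5 and 29.6 in controls. All 6 of these freeze arrays lay above all controls, and the 6 hour arrays above the 1 day arrays. The difference from control was 4.58 ± 0.52 at 6 hours (adjusted p = 3.81e-06) and 2.12 ± 0.52 at 1 day (adjusted p = 0.00993). A further Cxcl1 probe set, which correlated with it at r = 0.968 over the 25 arrays, gave 5.14 and 2.86 and was called at both times. From 6 hours to 1 day after freeze Cxcl1 fell by 2.46 on the log2 scale (adjusted p = 0.0105). That fall missed the threshold when 1 of the 25 arrays was left out, freeze replicate 446 (highest adjusted p = 0.0503). By 3 days the freeze arrays read 44.1, 86.2 and 61.1, and the difference of 0.61 ± 0.52 was not called.

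Cxcl2, which acts on the same receptor, had signals of 325, 204 and 711 after freeze at 6 hours and 118, 132 and 176 at 1 day, against 24.7, 11.2 and 20.6 in controls. Its lowest freeze array at either time was thus well above its highest control. The differences were 3.59 ± 0.47 at 6 hours (adjusted p = 2.42e-05) and 2.29 ± 0.47 at 1 day (adjusted p = 0.00317). At 3 days its freeze arrays, at 22.3, 20.1 and 15.5, lay within the control range, and Cxcl2 had fallen by 2.25 since 1 day (adjusted p = 0.0105). At 7 days it read 1.9 and 5.6 after freeze, below all controls, but the difference of -0.91 ± 0.53 was not called.

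Cxcl5 encodes a further Cxcr2 ligand. Its freeze signals were 1167, 881 and 1275 at 6 hours and 404, 416 and 722 at 1 day, against 35, 22.2 and 30.5 in controls. No freeze array of either time came near the controls. The differences were 4.72 ± 0.58 (adjusted p = 1.16e-05) and 3.60 ± 0.58 (adjusted p = 0.000452). At 3 days replicates 450 and 468 still read 137 and 158, whereas replicate 436 read 19.7, below every control.

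Cxcl10, the interferon-inducible ligand of Cxcr3, behaved unlike the other chemokines. It gave 49.2, 77.6 and 56.8 after freeze and 83.5, 43.9 and 68.3 after contraction at 6 hours, against 6.4, 18.2 and 3.6 in controls. Every injured array of that time lay above every control, and the injuries overlapped. The difference from control was 1.76 ± 0.47 after freeze (adjusted p = 0.0272) and 1.82 ± 0.47 after contraction (adjusted p = 0.0448). The call held in 20 of the 25 fits that each left out 1 array after freeze, and in 7 of 25 after contraction. After freeze Cxcl10 had fallen by 1.81 by 1 day (adjusted p = 0.0333), when its arrays read 2.8, 5.4 and 18.7, overlapping the controls. At 3 days it read 87.3 and 74.2 on replicates 450 and 468 and 6.8 on replicate 436. The difference at 3 days was 1.37 ± 0.47 with all arrays (adjusted p = 0.0463), called in 6 of the 25 fits, and 2.12 ± 0.38 without replicate 436 (adjusted p = 9.03e-05).

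Cxcl12, the stromal chemokine that binds Cxcr4, passed the filter on low values on all 25 arrays. By the probe set described here it lay below every control in 7 of the 8 injured groups. It read 188, 209 and 215 after freeze at 6 hours, against 268, 319 and 273 in controls. All 3 freeze arrays lay below all controls, but the difference of -0.46 ± 0.19 was not called (adjusted p = 0.196). At 1 day after freeze it read 481, 659 and 465, above every control, a rise of 0.86 ± 0.19 (adjusted p = 0.0054) that held in all 25 fits without 1 array and was not called with the mean of its probe sets (adjusted p = 0.0684). The step from 6 hours to 1 day was 1.32 ± 0.19 (adjusted p = 0.000396), and from 1 day to 3 days Cxcl12 fell by 1.49 (adjusted p = 8.62e-05, and 0.21 with the mean of its probe sets). At 3 days its freeze arrays, at 147, 206 and 190, were again below all controls, with a difference of -0.64 ± 0.19 (adjusted p = 0.0289). After contraction this probe set of Cxcl12 lay below all controls at each time, at 154 to 255, and was not called with all arrays.

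The probe sets of Cxcl12 disagreed. The one described above correlated with the other 2 at r = 0.057 and r = 0.657 over the 25 arrays. At 1 day after freeze the others gave differences of 0.23 and 0.50, neither called. At 3 days the less alike of them read 79.9, 409 and 229 after freeze, against 77.9, 124 and 61.6 in controls, and was called higher at 1.12 ± 0.38 (adjusted p = 0.0464), although replicate 436 lay within the control range. After contraction the others overlapped the controls at each time. At 3 days after contraction the less alike of them read 103.5 to 165.1, against 61.6 to 124.2 in controls. The direction of Cxcl12 at 3 days after freeze, and its place below the controls after contraction, therefore depend on the probe set. The transcripts that each detects were not told apart here.

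Il1b, the gene of the cytokine itself, read 362, 411 and 738 after freeze at 6 hours and 200, 196 and 268 at 1 day, against 9.6, 6.2 and 16.1 in controls. Freeze and control arrays were far apart at both times. The differences were 4.40 ± 0.65 (adjusted p = 0.000119) and 3.32 ± 0.65 (adjusted p = 0.00227), and both were called in all 25 fits that left out an array. At 3 days replicates 450 and 468 read 46.9 and 51.3, above all controls, and replicate 436 read 10.3. The fall of 2.37 between 1 day and 3 days missed the threshold (adjusted p = 0.0585).

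Il1r1, the signalling receptor, had smaller differences. It read 198, 113 and 194 after freeze at 6 hours and 94, 156 and 146 at 1 day, against 74.0, 47.4 and 53.1 in controls. All 6 freeze arrays lay above all controls, yet the differences of 1.33 ± 0.39 and 1.02 ± 0.39 were not called (adjusted p = 0.0531 and 0.0847). Without replicate 436 both were, at adjusted p = 0.00149 and 0.00627.

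Il1r2, the decoy receptor, rose at the same times. Its signals were 271, 421 and 307 after freeze at 6 hours and 201, 282 and 207 at 1 day, against 48.9, 49.7 and 36.7 in controls. Every freeze array of these times lay above every control, and the differences were 2.56 ± 0.32 (adjusted p = 1.16e-05) and 2.06 ± 0.32 (adjusted p = 3e-04). A further probe set of Il1r2 (r = 0.929 with it) gave 3.52 and 3.09, both called. By 3 days Il1r2 had fallen by 1.95 (adjusted p = 0.00106) and read 35.3, 50.5 and 66.2 after freeze.

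Il1rn, the antagonist gene, read 240, 235 and 579 after freeze at 6 hours and 144, 258 and 234 at 1 day, against 54.3, 20.6 and 8.5 in controls. The controls were spread widely, but all 6 freeze arrays lay above them. The differences were 3.19 ± 0.64 (adjusted p = 0.00304) and 2.58 ± 0.64 (adjusted p = 0.0102), and the one at 1 day was lost in 1 of the 25 fits without an array (adjusted p = 0.0538). At 3 days Il1rn read 178 and 223 on replicates 450 and 468, and 7.7 on replicate 436. With all arrays its difference at 3 days was 1.42 ± 0.64 and was not called, and without replicate 436 it was 2.54 ± 0.45 (adjusted p = 8.21e-05). After contraction at 3 days it read 153, 55.0 and 82.8, all above the controls, with a difference of 1.49 ± 0.64 that was called only without replicate 436 (adjusted p = 0.00959).

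**Figure D2:**
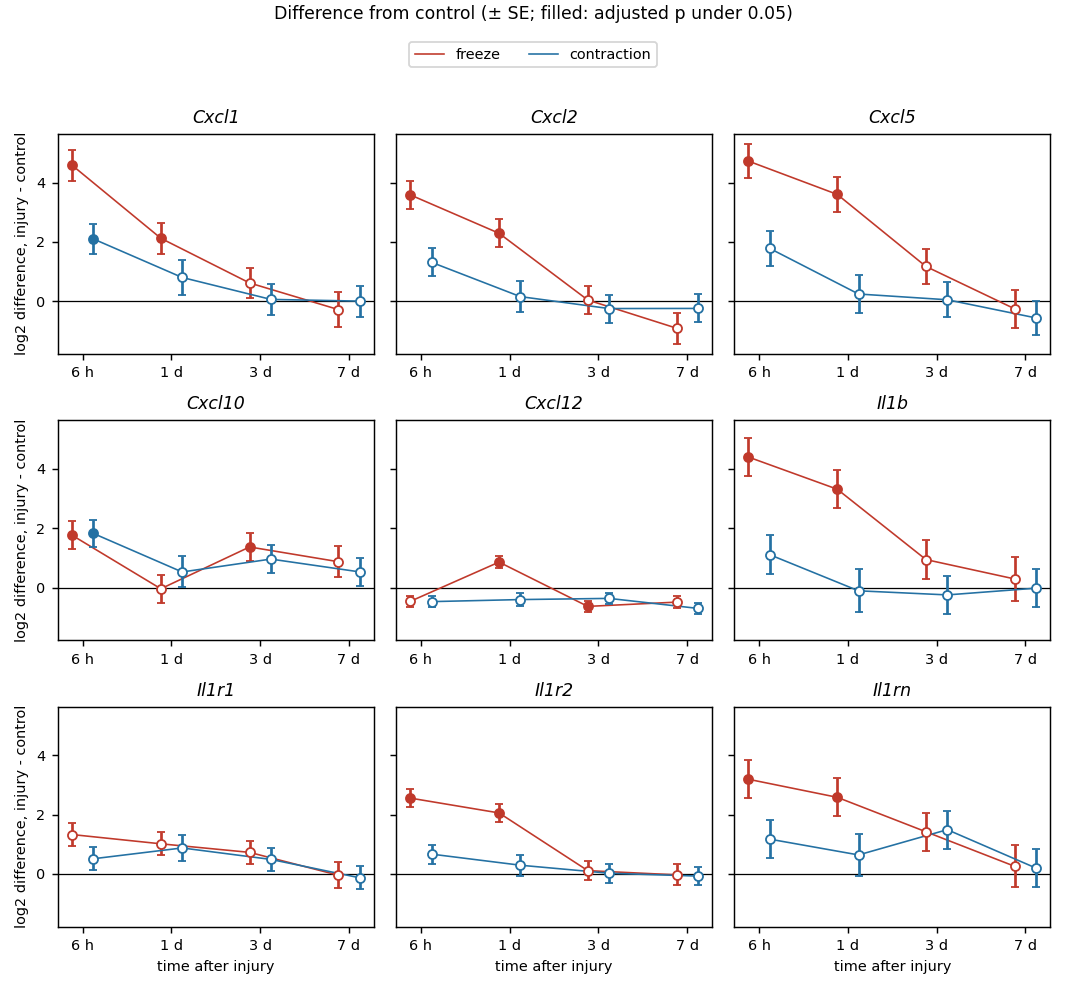
Difference from control on the log2 scale (± SE) of the 9 genes by time, freeze in red and contraction in blue, with filled points where the adjusted p was under 0.05. Freeze differences of Cxcl1, Cxcl2, Cxcl5, Il1b, Il1r2 and Il1rn were called at 6 hours and at 1 day, and Cxcl10 was called at 6 hours after both injuries.

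At the later times few of the genes were called. At 3 days after freeze 2 of the 9 were called with all arrays, Cxcl10 higher and Cxcl12 lower, against 17.9% of all probe sets. Without replicate 436 there were 5, against 42.4%, as Cxcl5 (1.93 ± 0.53, adjusted p = 0.00495), Il1r1 (1.39 ± 0.30, adjusted p = 0.000598) and Il1rn joined. Without freeze replicate 450 or 468 none was called, at 7 and 12 probe sets of the whole array. Without control 1 or 3 none was called either, at 697 and 699 probe sets, against 1698 with all arrays. The count of the 9 genes moved by over 1.5 times in 21 of the 25 fits that left out 1 array. Leaving out replicate 436 also raised the counts of groups it does not belong to, and the SE of Il1r1 after freeze at 6 hours was 0.27 without it and 0.39 with it. Of the 9 genes, 8 were then called after freeze at 6 hours (11.4% of all probe sets) and 8 at 1 day (26.8%). At 7 days after freeze none of the 9 was called by limma (1 at an unadjusted p under 0.05), against 5.29%.

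After contraction none of the 9 was called at 1 day (1.79% of all probe sets), 3 days (8.25%) or 7 days (0.537%) by limma, and 0, 1 and 1 had an unadjusted p under 0.05. Without freeze replicate 436 there were 2 at 3 days, Il1rn and Cxcl10 (0.96 ± 0.34, adjusted p = 0.0449), against 22.8%, and 1 at 7 days, Cxcl12 (-0.70 ± 0.18, adjusted p = 0.0285), against 3.03%. The steps between neighbouring times after contraction gave no call with all arrays, against 0.0421%, 1.16% and 0.842% of probe sets, while 4, 0 and 0 of the genes had an unadjusted p under 0.05. Without replicate 436 Il1rn fell by 1.30 between 3 and 7 days (adjusted p = 0.0352), the only 1 of the 9 against 13.1%. After freeze 3 of the 9 changed between 6 hours and 1 day (3.57%), 4 fell between 1 day and 3 days (1.61%), with Cxcl5 (-2.43 ± 0.58, adjusted p = 0.0272) beside Cxcl12, Cxcl2 and Il1r2, and none changed between 3 and 7 days (0.81%, with 1 at an unadjusted p under 0.05). Without freeze replicate 446 the step to 1 day had 1 call, Cxcl12, at 264 probe sets of the whole array. Without freeze replicate 464 the step to 3 days had 2, at 87 probe sets. Without replicate 436 the last step had 4 falls (17.1%), in Il1rn, Cxcl5, Il1r1 and Cxcl10.

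The contraction arrays at 6 hours differed among themselves. For Il1b replicate 431 read 277 and replicates 417 and 445 read 10.0 and 5.9, against 6.2 to 16.1 in controls. Cxcl5 read 489 on replicate 431 and 72.9 and 55.9 on the others, against 22.2 to 35 in controls. Cxcl1 read 717, against 101 and 97.9 on the other contraction arrays. Replicate 431 thus lay within the freeze range in Cxcl1 and below it, far above the controls, in Il1b and Cxcl5. The other arrays lay above the controls in Cxcl1 and Cxcl5 and among or just below them in Il1b. Cxcl2 (203 against 37.4 and 30.0) and Il1r2 (173 against 59.5 and 44.3) divided the same way. For Cxcl10, Cxcl12 and Il1r1 replicate 431 had 0.58, 0.80 and 0.96 times the mean signal of the other 2. The difference of Cxcl1 from control after contraction was 2.10 ± 0.52 with all arrays (adjusted p = 0.035). Without replicate 431 it was 1.20 ± 0.40 (adjusted p = 0.221), Cxcl10 was 2.04 ± 0.53 (adjusted p = 0.061), and none of the 9 was called, against 1.35% of probe sets. None was called without control 1 or control 3 either, at 138 and 137 probe sets of the whole array, against 178 with all arrays. Without freeze replicate 436 there were 3 of the 9 (3.36%), with Cxcl5 at 1.78 ± 0.47 (adjusted p = 0.0359) added. In 19 of the 25 fits without 1 array the count moved by over 1.5 times, to 1 or 0.

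**Figure D3:**
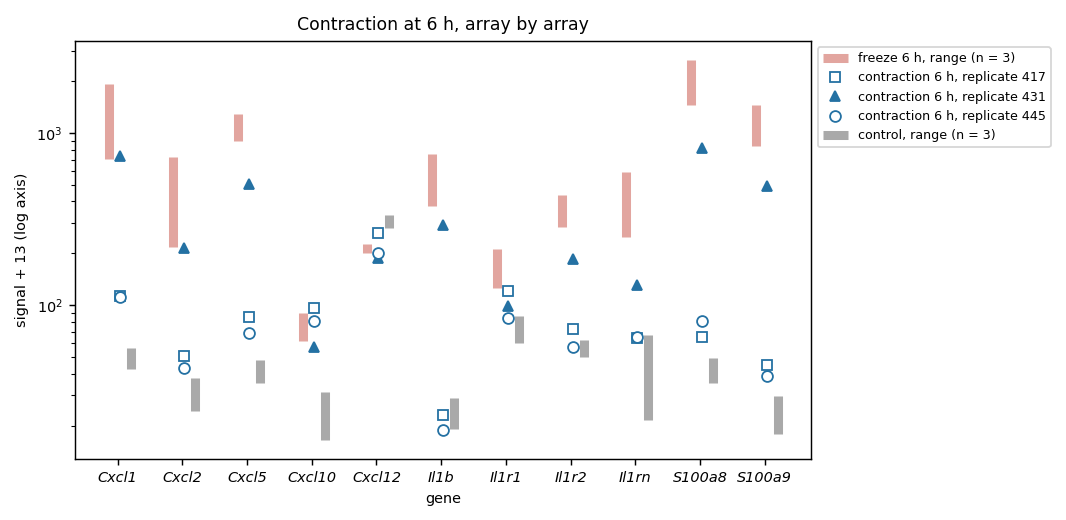
Signal plus 13 units (log axis) at 6 hours for the 9 genes and for S100a8 and S100a9, with the freeze range (red bar), the 3 contraction arrays as single points (replicate 431 filled) and the control range (grey bar). Replicate 431 lay far above replicates 417 and 445 in Cxcl1, Cxcl2, Cxcl5, Il1b, Il1r2, S100a8 and S100a9 and among them in Il1r1.

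The injuries were compared directly at each time. Of the contraction arrays, Il1b passed the filter on low values on 1 and Cxcl2 on 2, all at 6 hours. Il1b could therefore enter these tests only through freeze arrays. At 6 hours 5 of the 9 genes were higher after freeze than after contraction, against 0.252% of all probe sets. Il1b differed by 3.29 ± 0.65 (adjusted p = 0.03), Cxcl5 by 2.95 ± 0.58 (adjusted p = 0.03) and Il1r2 by 1.89 ± 0.32 (adjusted p = 0.0185). Cxcl1 differed by 2.49 ± 0.52 (adjusted p = 0.0389) and Cxcl2 by 2.28 ± 0.47 (adjusted p = 0.0371). In Cxcl1 the groups overlapped, since contraction replicate 431 lay above the lowest freeze array. Without replicate 431 these 5 were called again (0.515%) and the difference of Il1b was 4.56 ± 0.41. Without contraction replicate 417 or 445 or freeze replicate 446 none of the 9 was called, at 1, 2 and 0 probe sets of the whole array, and without freeze replicate 418 only 1 was. Without freeze replicate 436, Il1rn was added at 2.02 ± 0.41 (adjusted p = 0.00828), which made 6 (2.36%). Cxcl10 and Cxcl12 showed no difference at 6 hours, with 95% intervals of -1.03 to 0.91 and -0.39 to 0.41.

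At 1 day 5 of the 9 were higher after freeze than after contraction, against 0.715%. Il1b (200, 196 and 268 after freeze, against 12.3 and 5.4 after contraction) differed by 3.43 ± 0.73 (adjusted p = 0.0167). Cxcl5 (404, 416 and 722, against 48.8 and 26.7) differed by 3.36 ± 0.65 (adjusted p = 0.00802). Cxcl12 (481, 659 and 465, against 246 and 183) differed by 1.26 ± 0.21 (adjusted p = 0.00244), a call lost with the mean of its probe sets (adjusted p = 0.0844). In each of the 3 genes the groups did not overlap, and freeze lay wholly above contraction in 20.1% of all probe sets. Cxcl2 (2.14 ± 0.53) and Il1r2 (1.76 ± 0.35) were the others called. Cxcl1, called at 6 hours, was not at 1 day (1.32 ± 0.58, adjusted p = 0.281). Leaving out contraction replicate 421 or 463 leaves only 1 array in that group, and calls were lost. Without freeze replicate 460 or 464, 3 of the 9 were called, at 74 and 66 probe sets of the whole array. Without freeze replicate 436 there were 6 (10.1%).

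At 3 days and at 7 days none of the 9 differed between the injuries by limma (0.389% and 0.368% of probe sets), and none had an unadjusted p under 0.05. Without replicate 436 there were 3 at 3 days (16.9%), Cxcl5 (1.89 ± 0.53, adjusted p = 0.0152), Cxcl10 (1.16 ± 0.38, adjusted p = 0.0387) and Il1r1 (0.90 ± 0.30, adjusted p = 0.0399). Averaged over the 4 times, Cxcl1, Cxcl2, Cxcl5, Il1b and Il1r2 were higher after freeze (4.06%), led by Il1b at 2.06 ± 0.34 (adjusted p = 0.00184). This count was 8 without replicate 436 (30.9%) and 3 without contraction replicate 421 or 463 or freeze replicate 454. Whether the injuries differed in their course over time was tested by an interaction of injury and time. It called Cxcl12 alone (adjusted p = 0.0351), against 0.589%. The other probe sets of Cxcl12 were not called by this F test (adjusted p = 0.964 and 0.611). The interaction called 4 of the 9 without replicate 436 (4.45%) and 6 without contraction replicate 431 (0.789%), Cxcl12 among both. Cxcl12 was called in 12 of the 25 fits without 1 array, and none of the 9 was in the others.

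**Figure D4:**
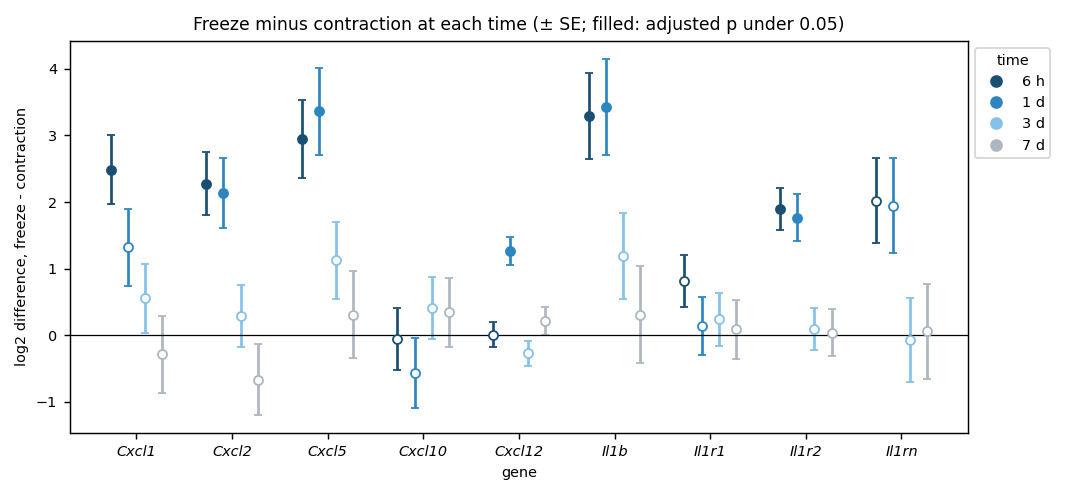
Difference of freeze minus contraction on the log2 scale (± SE) for the 9 genes at 4 times, with filled points where the adjusted p was under 0.05. The calls were 5 genes at 6 hours and 5 at 1 day, all of them higher after freeze, and none at 3 or 7 days.

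By mean log2 level, freeze at 6 hours and then freeze at 1 day were the highest groups for Cxcl1, Cxcl2, Cxcl5, Il1b, Il1r1, Il1r2 and Il1rn. The step between these neighbours was larger than both groups' SDs for Cxcl1, Cxcl2, Cxcl5, Il1b and Il1r2, and not for Il1r1 and Il1rn. Below them, contraction at 6 hours was the next in order for Cxcl1, Cxcl2, Cxcl5, Il1b and Il1r2, with an SD of 0.90 to 2.20 that exceeded the step to the next group. For Cxcl10 contraction at 6 hours came at the top (6.26 ± 0.39, SD, n = 3), next to freeze at 6 hours (6.20 ± 0.28), and did not differ from it beyond the spread. Cxcl12 was highest after freeze at 1 day (9.08 ± 0.27) and next in controls (8.22 ± 0.13), each set off from the group below it by more than the SDs. Most other neighbours in these orders lay within their spread.

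Of 6 receptor genes tested, Cxcr2, the receptor of the neutrophil-attracting ligands, was higher after freeze at 6 hours (1.25 ± 0.32, adjusted p = 0.0237) and Cxcr4, the receptor of Cxcl12, after freeze at 3 days (1.88 ± 0.56, adjusted p = 0.0283). None was lower in any of the 8 groups. Of all probe sets tested, 3.33% were higher after freeze at 6 hours, 9.68% at 3 days and 3.65% at 7 days. The receptor genes on the array had a summed signal of 156 to 384 after freeze at 3 days, against 143 to 181 in controls. Of 3 other CXC ligands tested, Cxcl9, which also binds Cxcr3, was higher after freeze at 7 days (1.89 ± 0.54, adjusted p = 0.0447). The other members of the interleukin 1 family were sparse on the array, with 3 tested. Of these, Il18 was higher after freeze at 3 days (1.33 ± 0.43, adjusted p = 0.0391). Summed over the family genes on the array, freeze at 3 days gave 71.3 to 346, against 94.5 to 150 in controls. The calls of Cxcr4 and Il18 were made with all arrays, replicate 436 included.

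Of 11 genes of interleukin 1 processing and signalling, 2 were higher after freeze at 6 hours, Nfkbia, an inhibitor of NF-kB that is itself an NF-kB target (1.01 ± 0.19, adjusted p = 0.00185), and Rela, an NF-kB subunit (0.94 ± 0.23, adjusted p = 0.0182). At 1 day 3 were higher (9.15% of all probe sets, and 3.33% at 6 hours). At 3 days, with replicate 436 included, 1 was higher (9.68%). It was Casp1, the gene of the enzyme that cuts the interleukin 1 beta precursor (1.56 ± 0.36, adjusted p = 0.0135). After contraction none was higher at any of the 4 times, and Tab2, an adaptor in this pathway, was lower after freeze at 7 days (-1.34 ± 0.36, adjusted p = 0.0318) and after contraction at 3 days (-1.13 ± 0.32, adjusted p = 0.0343). The median difference of the 11 was 0.34 after freeze at 6 hours and 0.30 after contraction.

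Among 10 genes that textbook accounts list as induced by interleukin 1, 7 were higher after freeze at 6 hours (3.33% of all probe sets) and 6 at 1 day (9.15%). At 6 hours the largest were Ccl2 (6.15 ± 0.86, adjusted p = 5.7e-05) and Ccl7 (3.44 ± 0.54), which attract monocytes, and Il6 (4.00 ± 0.53, adjusted p = 2.52e-05), an inflammatory cytokine. Il6 had fallen by 2.48 at 1 day (adjusted p = 0.0115), while Ccl2 and Ccl7 stood at 6.85 and 4.97. After contraction 1 of the 10 was higher at 6 hours (1.63% of all probe sets), Ccl2 (3.68 ± 0.86, adjusted p = 0.0229). In fits chosen after seeing the data, limma called none without contraction replicate 431 (4 at an unadjusted p under 0.05), against 1.35% of all probe sets. Without freeze replicate 436 it called 3, against 3.36%. On contraction replicate 431 Il6 read 210, and on the others 26.0 and 31.1. The median of the 10 was 2.25 after freeze and 0.89 after contraction at 6 hours. At 1 day after contraction Ccl2 was again called higher (3.78 ± 0.96, adjusted p = 0.044), against 1.63% of all probe sets. At 3 days after contraction Ccl2 (3.83 ± 0.86), Ccl7 (2.075 ± 0.54) and Mmp3 (1.24 ± 0.34) were called higher, against 5.67%. At 3 days after freeze, with replicate 436 included, these were Ccl2, Ccl7 and Icam1, against 9.68%.

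Interferon-induced genes were set beside Cxcl10. None of 10 was called by limma after freeze at 6 hours (1 at an unadjusted p under 0.05), when Cxcl10 was called. At 3 days after freeze 5 were higher (9.68% of all probe sets), Ifit2 (3.46 ± 0.58, adjusted p = 0.00525), Mx1 (2.41 ± 0.70, adjusted p = 0.0249) and Isg15 (2.26 ± 0.60, adjusted p = 0.0185) by the most. Their summed signal at that time was 473 on replicate 436 and 4177 and 4160 on replicates 450 and 468, against 535 to 696 in controls, so replicate 436 lay below every control. Without replicate 436 all 10 were higher at 3 days after freeze, against 42.4% of all probe sets called in either direction. In that fit 2 were higher at 6 hours (11.4%) and 3 at 1 day (26.8%) after freeze. It was chosen after seeing the data. After contraction none was called at any of the 4 times, with 0, 0, 2 and 0 at an unadjusted p under 0.05.

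Some neutrophil markers were higher at the same times. The 12 on the array had a summed signal of 3059 to 4712 after freeze at 6 hours and 2197 to 3750 at 1 day, against 603 to 969 in controls, with none at 0. Much of the sum at 6 hours after freeze was S100a8 (1447 to 2644, against 22.5 to 36.2 in controls) and S100a9 (831 to 1431, against 4.8 to 16.6). Of the 8 tested, 4 were higher at 6 hours (3.33% of all probe sets), led by S100a9 (5.52 ± 0.63), S100a8 (5.47 ± 0.64) and Mmp9 (1.85 ± 0.37). The other 4 were not called at 6 hours, and Ly6g, Ltf and Ngp did not pass the filter. Among those not called, Csf3r, the receptor of granulocyte colony-stimulating factor, read 131 to 316 after freeze at 6 hours, against 255 to 574 in controls. The fourth marker called at 6 hours, Cxcr2, is also among the receptors above. At 1 day after freeze S100a8 (5.24 ± 0.64), S100a9 (4.71 ± 0.63) and Mmp9 (3.31 ± 0.37) were called higher (9.15% of all probe sets). Cxcr2 was not called at 1 day (0.78 ± 0.32, adjusted p = 0.105). S100a8 and S100a9 encode the calcium-binding proteins that fill the neutrophil cytosol and occur in monocytes too. On contraction replicate 431 the neutrophil sum was 2113 and S100a8 read 803, while replicates 417 and 445 had sums of 682 and 721 and S100a8 at 52.6 and 67.5. The sum was 513 to 812 after freeze at 3 days and 476 to 683 at 7 days, where no neutrophil marker was called by limma (1 at an unadjusted p under 0.05 at each time). The part of cell numbers in the changes of Cxcl1, Cxcl2, Cxcl5, Il1b and Il1r2 was not tested.

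Macrophage and monocyte markers followed another course. Their summed signal over 12 genes was 2522 to 4748 after freeze at 6 hours, 6401 to 9197 at 1 day, and 8238 to 8863 at 7 days, against 564 to 758 in controls, with none at 0. At 3 days it was 381 on freeze replicate 436 and 27750 and 29622 on replicates 450 and 468. After contraction it was 717 to 1560 at 6 hours and 9440 to 14447 at 3 days, where none of the 9 genes was called with all arrays. Actin control probes near the 3' end over those near the 5' end are a sign of RNA quality. Their ratio was 0.657 to 0.955 after freeze at 6 hours and 1.01 to 1.31 at 1 day, against 0.560 to 0.595 in controls. After contraction at 3 days it was 0.923 to 1.213. The same ratio for Gapdh was 0.810 to 0.944 after freeze at 6 hours and 0.825 to 1.037 at 1 day, against 0.869 to 1.13 in controls. The part of RNA quality in the results was not tested.

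**Figure D5:**
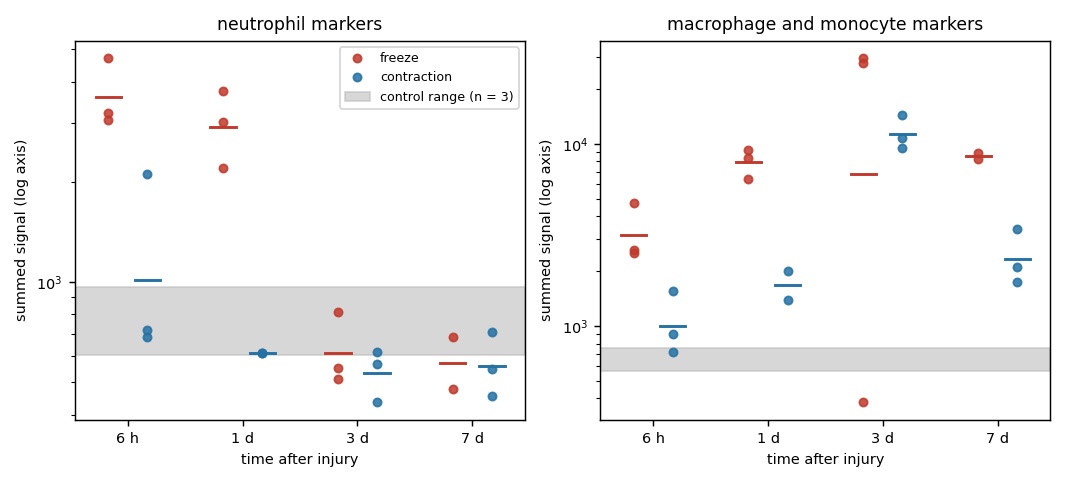
Summed signal (log axis) of 12 neutrophil markers and of 12 macrophage and monocyte markers on every array by time, with freeze (red) left of contraction (blue), bars at the mean of the log values, and the control range as a grey band. The neutrophil sum was highest after freeze at 6 hours and 1 day and on 1 contraction array at 6 hours, while the macrophage sum was high after freeze at 1, 3 and 7 days, apart from 1 array at 3 days, and after contraction at 3 days. On the freeze arrays at 6 hours and on that contraction array, much of the neutrophil sum was S100a8 and S100a9.

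The genes whose pattern over the 25 arrays was most like each of the 9 were ranked by Pearson's r of the log2 levels, a description in which the arrays share their groups. S100a9 was at the top for Cxcl2 (r = 0.948), Cxcl5 (0.970), Il1b (0.965) and Il1r2 (0.967), and S100a8 was among the next 2 for each. Cxcl1 was most like Il6 (0.962), then Hdc (0.942), which encodes the enzyme that makes histamine. Il1rn was most like Plaur (0.933), the urokinase receptor gene, and then Clec4d and Slfn4 (both 0.904). Il1r1 was most like Myd88 (0.890), the adaptor through which it signals, and Hmox1 (0.887). Cxcl10 and Cxcl12 had no gene as close, with Trafd1 at 0.772 and Mt4 and Ltb4r1 at 0.764. Without freeze replicate 436, Arcn1 (0.791) headed the list of Cxcl12 and Hmox1 (0.874) that of Il1r1, and the other 7 kept their top gene. Among the 9 themselves, Cxcl5 and Il1b were the most alike (0.959) and Cxcl10 and Cxcl12 the least (-0.409).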

How the data were processed

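RNA from 25 tibialis anterior muscles was measured on 25 Affymetrix arrays, 1 per sample. The deposited values are intensities on a linear scale. Per the submitters' processing notes they come from MAS5, and the authors' scaling gave each array nearly the same trimmed mean. No read depth exists for arrays, so the number of arrays limits the precision. Of 12488 probe sets, the platform annotation gave 10833 a single symbol, 396 several and 1193 none, beside 66 Affymetrix controls.

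Signals were taken as log2(signal + 13). Probe sets above the 40th percentile on at least 2 arrays were tested (9506, 6919 genes) with limma 3.58.1 in R 4.3.3: 1 mean per group, moderated variances with a trend, and Benjamini-Hochberg adjustment over all 9506. Comparisons were each injury against control, freeze against contraction, neighbouring times, and F tests for any change and for the interaction. The fit was checked on simulated data.

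The members and gene lists were chosen with earlier results of these data known. All 9 members were named in every comparison. Of each list, at most the 3 largest rises and 2 largest falls among called genes were named, and as most alike the 3 genes with the highest correlation. Alternatives were other pseudocounts, filters, normalizations, thresholds and weights, a random block of adjacent sample numbers, the mean of a gene's probe sets, fits of only the groups compared, and leaving out each array.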

Additional observations from a re-analysis of the deposited data

Results flagged for a closer look

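The responses to the 2 injuries differed by limma's test of the difference itself for 5 genes at 6 hours and 5 at 1 day, as freeze minus contraction on the log2 scale. At 6 hours the differences were 3.29 for Il1b, 2.95 for Cxcl5, 2.49 for Cxcl1, 2.28 for Cxcl2 and 1.89 for Il1r2. At 1 day they were 3.43 for Il1b, 3.36 for Cxcl5, 2.14 for Cxcl2, 1.76 for Il1r2 and 1.26 for Cxcl12. At 6 hours every freeze array lay above every contraction array for Il1b, Cxcl5, Cxcl2 and Il1r2, but not for Cxcl1. For Cxcl2 the gap was small, with the lowest freeze array at 204.1 and contraction replicate 431 at 202.7. At 1 day all 5 genes called were separated in this way. Of all 9 genes, 6 were at 6 hours and 7 at 1 day, against 10% and 20.1% of all probe sets. The calls at 6 hours rest on contraction replicates 417 and 445 and freeze replicate 446, since none of the 9 genes was called without any 1 of them.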

How the results depend on the processing

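Counts of the 9 genes called are compared with those of all arrays and the settings of the report. At an adjusted p under 0.01 the counts were 0 at 3 days after freeze, 0 at 6 hours after contraction, 0 and 2 for freeze minus contraction at 6 hours and 1 day, 3 for its mean over 4 times, 1 for freeze from 6 hours to 1 day, 2 from 1 day to 3 days, and 0 for the interaction. A pseudocount of 4 gave 1 at 3 days after freeze and 1 for freeze minus contraction at 6 hours, and a pseudocount of 32, quantile normalization and median centring each gave 2 for the interaction. No filter gave 1 at 3 days after freeze, 1 at 6 hours after contraction and 3 for freeze minus contraction at 6 hours. The 60th percentile filter gave 1 and 1 for the first pair of these. Without a variance trend the interaction had 0. Array weights gave 5 at 3 days after freeze, 1 at 7 days after contraction, 5 for freeze minus contraction at 3 days, 8 for its mean over times, 7 and 4 for the freeze steps from 1 to 3 and from 3 to 7 days, 1 for contraction from 3 to 7 days, and 4 for the interaction. Adjacent sample numbers as a random block gave 3 for freeze minus contraction at 6 hours. The mean of a gene's probe sets gave 1 at 3 days after freeze. Fits of only the groups compared gave 0 at 3 days after freeze, 1 at 6 hours after contraction, 0 for freeze minus contraction at 6 hours, 6 and 0 for the freeze steps from 6 hours to 1 day and from 1 to 3 days, and 1 for contraction from 3 to 7 days.

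Leaving out 1 array gave 6 to 8 at 6 hours and 6 to 8 at 1 day after freeze, 0 to 5 at 3 days and 0 to 0 at 7 days. After contraction it gave 0 to 3 at 6 hours, 0 to 0 at 1 day, 0 to 2 at 3 days and 0 to 1 at 7 days. For freeze minus contraction it gave 0 to 6 at 6 hours, 0 to 6 at 1 day, 0 to 3 at 3 days, 0 to 0 at 7 days, and 3 to 8 for the mean. For the freeze steps it gave 1 to 4, 2 to 6 and 0 to 4, for the contraction steps 0 to 0, 0 to 0 and 0 to 1, for any change 8 to 9, and for the interaction 0 to 6.

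Of the differences called with all arrays or under the alternative, the sign changed for Cxcl12 at 3 days after freeze, at 0.0044 with the mean of its probe sets, and for Il1rn in freeze minus contraction at 3 days, at 1.10 with array weights. The causes were not tested. Of the other single-gene differences, 4026 kept their direction and side of the threshold when 1 array was left out, 136 lost a call, 30 gained one and 83, called in neither fit, changed sign. Under the other settings 2081 kept both, 49 lost a call, 38 gained one and 34, called in neither, changed sign. No paired analysis was possible because the groups share no replicate numbers, and the adjacent sample numbers used as a random block are not called pairs in the labels. With 2 or 3 arrays a group, differences in dim genes of the size of the replicate spread could not be seen.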
